A study of Mus musculus with 6 samples.

Results

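H2bc1 and H2ac1 encode the testis forms of the core histones H2B and H2A, known in older literature as TH2B and TH2A. The pair was taken as the rows of the footprint table with these symbols, which gave 2 of 22770 gene rows. The choice was made with the genotype comparison of these data known, so their values in the 2 genotypes are a description and carry no test. The material was round spermatids of mouse testis, the haploid cells that follow meiosis. In all, 3 samples carried the genotype labelled Eif5a SKO and 3 were labelled wild type. The labels do not say what SKO stands for, and the table heads its columns cKO. What drives the deletion, the mouse strain and the age are not given here. EIF5A is a translation factor that helps ribosomes through difficult stretches of coding sequence, and ribosome profiling sequences the RNA stretches that ribosomes shield from nuclease.

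Nucleosomes hold H2A and H2B as dimers. In male germ cells the testis forms begin to take the place of the somatic H2A and H2B around meiosis and stay in chromatin until most histones give way to transition proteins and protamines in elongating spermatids. Male mice that lack both testis genes are known to be sterile. H2bc1 (gene identifier 319177) and H2ac1 (319163) lie back to back at the edge of the large histone cluster. In GRCm38 they occupy chromosome 13, 23933725 to 23934156 on the minus strand and 23934437 to 23934913 on the plus strand.

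The stretch between the starts of the 2 genes, 280 bases long, is shown because it is the upstream sequence of both genes at once. It was read from the RefSeq promoter windows of GRCm38.p6, at chr13:23934157-23934436, and is written 5′ to 3′ on the plus strand, so H2bc1 starts just before its first base and H2ac1 just after its last. Capitals mark matches on either strand to 4 short motifs. The first is TTTGCAT, most of the octamer known from histone H2B promoters. The second is the CCAAT box. The third is the TATA box, searched as TATAAA. The fourth is TGACGT, part of the cyclic AMP response element.
Stretch between H2bc1 and H2ac1: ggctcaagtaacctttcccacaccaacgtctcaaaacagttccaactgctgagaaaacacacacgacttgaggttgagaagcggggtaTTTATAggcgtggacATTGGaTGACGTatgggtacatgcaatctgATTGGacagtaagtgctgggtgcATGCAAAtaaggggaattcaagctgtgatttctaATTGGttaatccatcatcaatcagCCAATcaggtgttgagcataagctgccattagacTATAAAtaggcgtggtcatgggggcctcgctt

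The stretch held 2 matches to TATAAA, 1 in each orientation. The match on the minus strand lay 89 bases from the H2bc1 start and the match on the plus strand lay 27 bases from the H2ac1 start. CCAAT occurred 4 times, 3 of them on the minus strand, and TTTGCAT occurred once, on the minus strand, 157 bases from the H2bc1 start and 118 bases from the H2ac1 start. TGACGT occurred once on the plus strand. None of these matches overlapped another. Among 32851 RefSeq promoter windows of 300 bases, TTTGCAT was found in 4.63%, CCAAT in 37.4%, TATAAA in 13.6% and TGACGT in 7.51%, on either strand. The 15 windows of other H2A and H2B genes held CCAAT in 15 cases, TATAAA in 8, TGACGT in 7 and TTTGCAT in 4. GGGCGG (35.7% of windows) and CACGTG (7.15%) were not found between the starts. Both genes of the pair have the first 4 motifs in their own windows, which overlap by 220 bases, so they are not independent in this.

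As a check of the labels, Eif5a had 1.84, 1.93 and 2.99 FPKM in the Eif5a SKO samples and 34.2, 48.8 and 61.9 FPKM in the wild-type samples. FPKM are fragments per kilobase of transcript, scaled to library size, as the authors computed them. The length is that of the transcript, not of its translated part, so levels of different genes compare only roughly. The libraries also differed in make-up. Protein-coding genes made up 18.1%, 32.9% and 29.6% of all FPKM in Eif5a SKO replicates 1, 2 and 3. In wild-type replicates 1, 2 and 3 they made up 25.7%, 22.3% and 28.3%. Totals ran from 495616 in wild-type replicate 1 to 805560 in Eif5a SKO replicate 2. The bearing of this on H2bc1 and H2ac1 was not tested. The depth of the libraries is not stated. Steps between low values put the shallowest library, Eif5a SKO replicate 2, at 0.503 of the deepest, Eif5a SKO replicate 1. Fragment numbers take the commonest step in 113 olfactory receptor genes as 1 fragment. Only 12.2% of those genes' values lay within 0.05 (log2) of that step, so the fragment numbers are approximate.

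H2bc1 had 67.5, 138 and 161 FPKM in Eif5a SKO replicates 1, 2 and 3. It had 11.1, 13.7 and 24.7 FPKM in wild-type replicates 1, 2 and 3. The genotypes did not overlap: the lowest Eif5a SKO value was 2.74 times the highest wild-type value. The means were 122 ± 48.6 FPKM in Eif5a SKO and 16.5 ± 7.20 FPKM in wild type (SD, n = 3 each), a ratio of 7.41. Within Eif5a SKO the highest library was 2.38 times the lowest, and within wild type 2.22 times. The log2 fold change of FPKM + 1 was 2.80 (SE 0.47). That of the median tested row was 0.13.

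H2ac1 had 9.52, 17.7 and 25.0 FPKM in the Eif5a SKO libraries, in the same order, and 4.13, 5.83 and 1.97 FPKM in the wild-type libraries. These groups did not overlap either, but the gap was narrower, with the lowest Eif5a SKO value at 1.63 times the highest wild-type value. The means were 17.4 ± 7.73 FPKM in Eif5a SKO and 3.98 ± 1.94 FPKM in wild type (SD, n = 3 each), a ratio of 4.38. The log2 fold change of FPKM + 1 was 1.87 (SE 0.46). It was 1.54 without wild-type replicate 3.

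**Figure D1:**
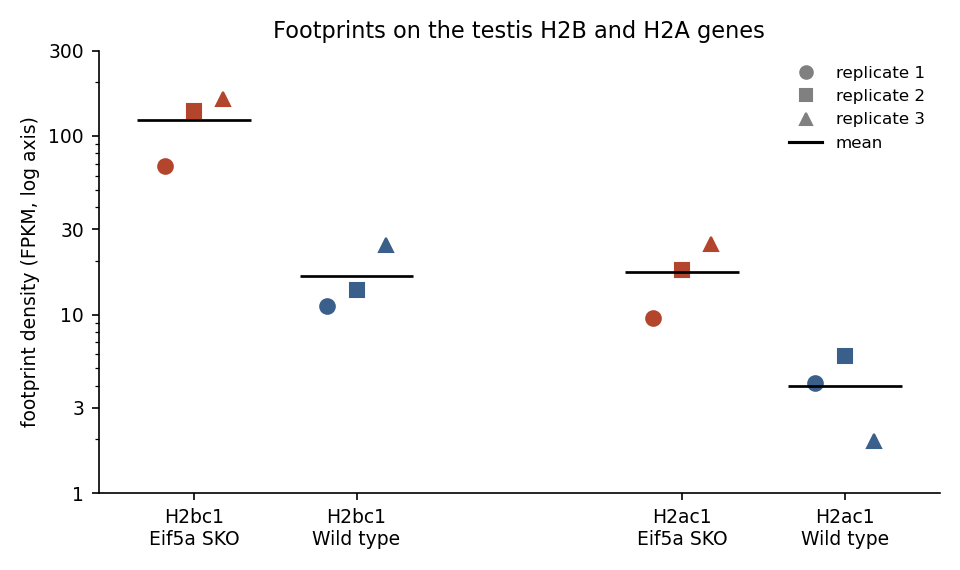
Footprint density of H2bc1 and H2ac1 in FPKM on a log axis, with 1 point per library, the replicate number as the shape and the mean as a line. H2bc1 lies at 67.5 to 161 FPKM in Eif5a SKO against 11.1 to 24.7 FPKM in wild type, and wild-type replicate 3 is the highest wild-type library for H2bc1 and the lowest for H2ac1.

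The precision of the 2 genes differed. By the step estimate, H2bc1 rested on about 127, 131 and 232 fragments in the Eif5a SKO libraries and about 16.5, 19.6 and 29.3 in the wild-type libraries. H2ac1 rested on about 19.7, 18.4 and 39.8 fragments in Eif5a SKO and about 6.76, 9.22 and 2.58 in wild type. The H2ac1 value of wild-type replicate 3 is thus a handful of fragments, and its distance from the other wild-type libraries is not interpretable at this depth. In bulk samples, fewer cells of a type and less RNA per cell cannot be told apart. Footprint density also depends on the amount of mRNA, which is not analysed here.

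Of the 15578 rows whose mean reached 1 FPKM, 0.128% were called on the deposited values (limma, Benjamini-Hochberg adjusted p under 0.05), 0.109% with Eif5a SKO higher and 0.0193% with it lower. Neither member was among them, and both were among the 8.15% of rows that were higher at an unadjusted p under 0.05. In all, 1269 of the 15578 rows were higher at that p and 441 were lower. After each library was divided by a scaling factor of the TMM type, a trimmed mean of log ratios, 1.02% of rows were called, 0.764% higher and 0.257% lower, and H2bc1 was 1 of those called higher. Groups did not overlap, with Eif5a SKO higher, in 10.9% of rows. Since the pair was picked on this contrast, these counts place it in the table and support nothing. Scaling left the ratio of means at 6.61 for H2bc1 and 3.65 for H2ac1, and put the all-row median log2 fold change at 0.003, against 0.13 unscaled. Among 62 tested rows made up of the pair and the histone lists described below, H2bc1 ranked 1 by log2 fold change of FPKM + 1 and H2ac1 ranked 15, both with and without TMM-type scaling. The first rank depended on the setting. H2al1c, described below, stood at 3.37 against 2.87 for H2bc1 with a pseudocount of 0.1, at 2.73 against 2.56 without Eif5a SKO replicate 3, and at 2.75 against 2.57 without wild-type replicate 1. With TMM-type scaling it stood at 2.59 against 2.40 and at 2.71 against 2.51 without the same libraries. With quantile normalization it was at 2.535 against 2.531. By the unscaled ratio of means H2al1c, at 11.3, and H2al1o, at 10.1, also lay above H2bc1. So did H2al1k at 7.82, H2al1a at 7.70, H2al1e at 7.43 and, by very little, H2al1b at 7.4107 against 7.4103. All of these but H2al1c were picked for mention from these values.

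Among protein-coding rows H2bc1 lay at percentiles 97.0, 97.0 and 98.3 of footprint density in Eif5a SKO and at 80.7, 80.3 and 85.1 in wild type. H2ac1 lay at percentiles 75.4, 77.9 and 86.4 in Eif5a SKO and at 55.6, 62.2 and 26.9 in wild type. H2bc1 thus ranked above H2ac1 in all 6 libraries. The ratio of their FPKM was 7.10, 7.82 and 6.43 in Eif5a SKO and 2.69, 2.35 and 12.5 in wild type. The Eif5a SKO ratios lay close together, while the wild-type ratios spread around them, and the outlying 12.5 has the shallow H2ac1 value of wild-type replicate 3 beneath it. The difference of mean ratios was 1.25, Eif5a SKO minus wild type. It was 4.60 without wild-type replicate 3, and changed sign to -0.33 or -0.50 without wild-type replicate 1 or 2, so the data do not show whether the 2 genes kept their proportion.

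Within its own family, H2bc1 was the densest of 16 H2B rows in every Eif5a SKO library. In wild type it ranked 3, 3 and 2, and the densest was Hist1h2bp, a somatic-type H2B gene. H2bc1 held 39.5%, 38.7% and 43.4% of the summed H2B footprint density in Eif5a SKO and 12.6%, 10.4% and 14.6% in wild type. This share varied little among replicates: it averaged 40.5% ± 2.51 in Eif5a SKO and 12.5% ± 2.08 in wild type (SD, n = 3 each). Since both terms of a share come from the same library, it does not change with the library's scaling.

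H2ac1 was a small part of its family throughout. The 7 H2A rows ranked here leave out the replacement and spermatid H2A variants. Among them H2ac1 ranked 3 in each Eif5a SKO library and 3, 3 and 5 in wild type, below Hist1h2al and H2ac20. Hist1h2al, which RefSeq lists as a transcribed pseudogene, had 58.9, 121 and 93.5 FPKM in Eif5a SKO and 36.6, 54.7 and 65.3 FPKM in wild type. H2ac1 held 7.84%, 7.63% and 13.1% of the summed H2A density in Eif5a SKO and 6.22%, 5.84% and 1.73% in wild type. The shares did not overlap, but the gap between 7.63% and 6.22% is narrow. The H2A sum covers 6 other H2A rows and not the replacement and spermatid H2A variants. H2az1, a variant left out, had 88.4 ± 27.7 FPKM in Eif5a SKO and 51.6 ± 20.0 FPKM in wild type. The H2B sum, by contrast, takes in the testis gene H2bl1, so the H2A and H2B shares are not built alike.

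**Figure D2:**
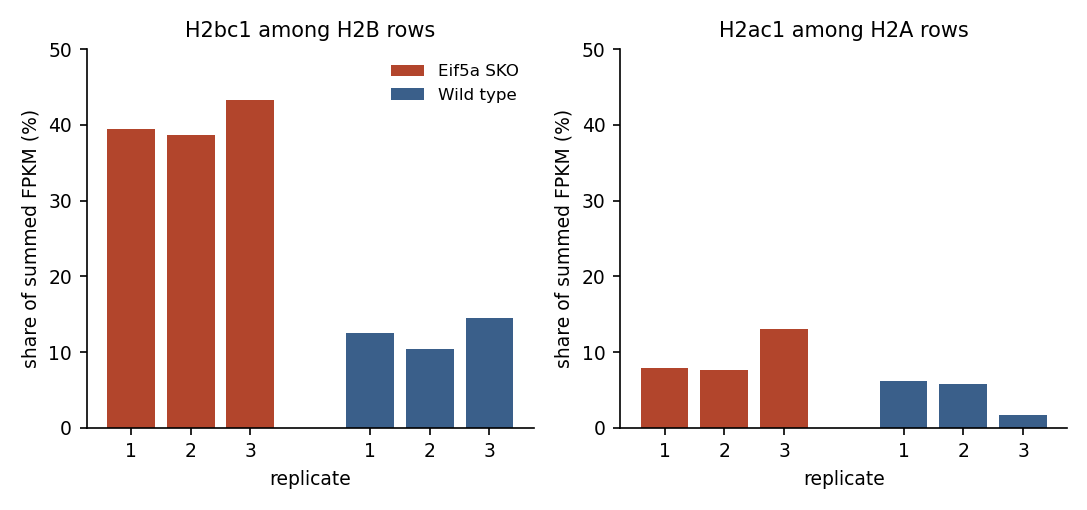
Share of the summed FPKM of H2B rows that lies on H2bc1 (left) and of H2A rows that lies on H2ac1 (right), in percent, 1 bar per library. The H2A rows leave out the replacement and spermatid H2A variants. H2bc1 holds 38.7% to 43.4% in Eif5a SKO and 10.4% to 14.6% in wild type, and H2ac1 holds 7.63% to 13.1% and 1.73% to 6.22%.

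The other H2A and H2B genes, most of which make the bulk nucleosome proteins of dividing cells, were the closest set to compare. Of 12 tested replication-type H2B rows, 0 passed limma's test either on the deposited or on the TMM-scaled values, 1 had an unadjusted p under 0.05, and in 0 of 12 were the groups apart. All 12 had a log2 fold change above that of the median row, with a list median of 0.64. Hist1h2bp had 24.1, 53.6 and 49.7 FPKM in Eif5a SKO and 18.3, 44.4 and 40.2 FPKM in wild type. H2bc15 had 27.6 ± 11.8 FPKM in Eif5a SKO and 15.3 ± 5.71 FPKM in wild type (SD, n = 3 each). The summed density of all 13 listed H2B rows, 1 of them not tested, was 102, 218 and 206 FPKM in Eif5a SKO and 76.6, 116 and 143 FPKM in wild type. These sums overlap. An exact permutation test over the 6 libraries, counting both directions, gave p = 0.3, and no lower p than 0.1 can arise with 3 libraries a group.

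Of 5 tested H2A rows, a set that includes the replication-independent H2aj, 0 passed limma's test on either scale, and 3 had an unadjusted p under 0.05. In 4 of the 5 the groups were apart with Eif5a SKO higher, and all 5 lay above the median row. Their median log2 fold change was 0.84. H2ac20 had 48.7 ± 13.9 FPKM in Eif5a SKO and 26.8 ± 7.85 FPKM in wild type (SD, n = 3 each). The summed H2A density without H2ac1 was 112, 214 and 165 FPKM in Eif5a SKO and 62.2, 94.0 and 111 FPKM in wild type. The lowest Eif5a SKO library was just above the highest wild-type library, and the same exact permutation test gave p = 0.1. Copies of these genes are near-identical in sequence, so the authors' counting could split reads between them. No other row had the same 6 values as H2bc1 or as H2ac1, which does not show whether reads were shared in part.

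The H3, H4 and linker H1 genes were set beside them, and the difference between the lists was not tested. Of 13 tested rows, 0 passed limma's test on the deposited values, 12 had an unadjusted p under 0.05 with Eif5a SKO higher, and the groups were apart in 10. Their median log2 fold change was 1.46. Under TMM-type scaling 2 rose, both encoding histone H4. H4c2 had 17.6 ± 7.80 FPKM in Eif5a SKO and 2.44 ± 0.509 FPKM in wild type (scaled log2 fold change 2.20, limma adjusted p = 0.0367). H4c8 had 19.0 ± 8.58 FPKM in Eif5a SKO and 3.31 ± 0.0933 FPKM in wild type (scaled log2 fold change 1.96, limma adjusted p = 0.0439). Unscaled, limma gave H4c2 an adjusted p of 0.0896 and H4c8 one of 0.113. H1f1, a linker histone gene found in testis and dividing cells, had 11.3, 32.0 and 27.8 FPKM in Eif5a SKO and 0.852, 3.53 and 5.42 FPKM in wild type and did not pass under either scaling.

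The list of other testis histone genes also holds H3f3a, H3f3b and H1f10, which are not confined to testis. H3f3b had 131 ± 51.5 FPKM in Eif5a SKO and 42.0 ± 16.3 FPKM in wild type. H3f3a had 106 ± 31.4 FPKM in Eif5a SKO and 63.4 ± 30.2 FPKM in wild type. Of the list, 25 rows were tested and 4 rose with the deposited values. These are H2al1c, H2al1d, H2al1f and H2al1i, spermatid H2A variants that have the same 6 values and count as 1 measurement, at 13.1 ± 3.39 FPKM in Eif5a SKO and 1.16 ± 0.237 FPKM in wild type (log2 fold change 2.69, limma adjusted p = 0.0244). Under TMM-type scaling 10 rose, among them H2ab1 and H2ab3, short H2A variants picked for mention once their values were known. The 10 include the 4 identical rows, and also H2al1a, H2al1b and H2al1e, which had nearly the same values as each other. They are therefore not 10 separate measurements. H2ab3 had 34.8 ± 17.2 FPKM in Eif5a SKO and 8.24 ± 1.29 FPKM in wild type (scaled log2 fold change 1.70, limma adjusted p = 0.0473). The list median was 1.66, with identical rows counted separately, and 21 of the 25 tested rows were distinct. Counted in the same way, 22 of 25 lay above the median row and 18 were higher at an unadjusted p under 0.05 (limma). The groups were apart with Eif5a SKO higher in 18, against 10.9% of all tested rows. These include H3f4, with means of 66.9 and 18.2 FPKM, and H1f6, with means of 14.5 and 4.56 FPKM, both picked for mention from these values. Not all members lay high: H1f7, a spermatid linker histone, had 2.97 ± 0.686 FPKM in Eif5a SKO and 3.56 ± 0.560 FPKM in wild type. The H2A variants used outside the testis gave 0 of 5 past the test (limma, 0 at an unadjusted p under 0.05, and 0 under TMM-type scaling), with a median of -0.0002. That median was not stable: relative to the median row it was -0.13, against 0.34 without Eif5a SKO replicate 2 and 0.55 over rows averaging 5 FPKM or more. H2az1 had 88.4 ± 27.7 FPKM in Eif5a SKO and 51.6 ± 20.0 FPKM in wild type. Under TMM-type scaling limma gave it an unadjusted p of 0.0440 and an adjusted p of 0.303.

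**Figure D3:**
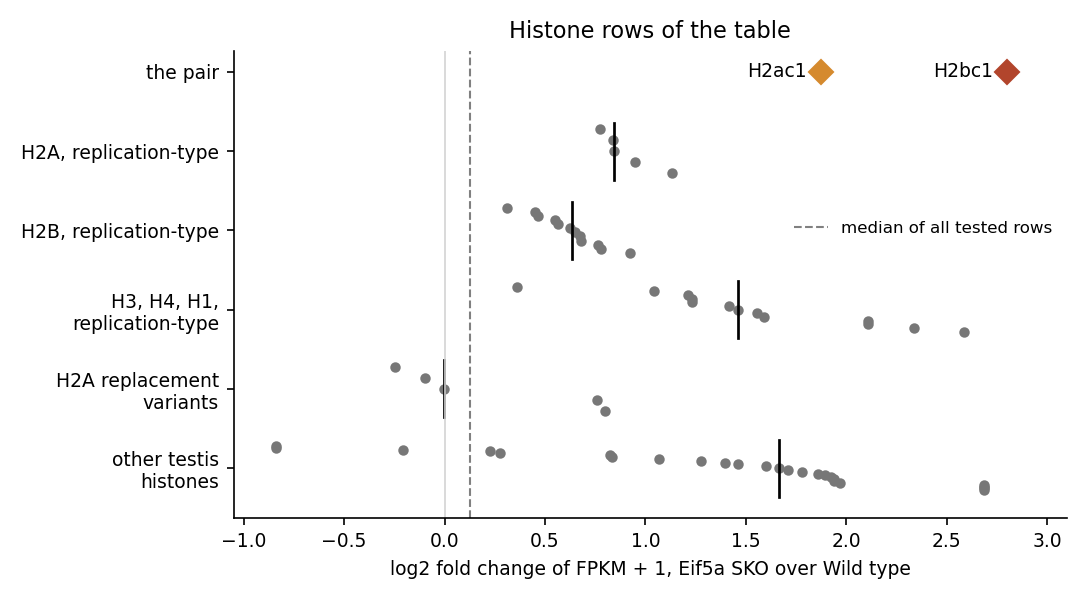
Log2 fold change of FPKM + 1, Eif5a SKO over wild type, with 1 point per tested row and a black bar at the median of each histone list. H2bc1 lies at 2.80 and H2ac1 at 1.87, against list medians of 0.64 for H2B, 0.84 for H2A and 1.46 for H3, H4 and H1, and the dashed line is the median of all tested rows, 0.13.

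The position of the pair was then set against its surroundings. The next protein-coding genes are Slc17a4 on one side, a solute carrier gene 18716 bases away that was not analysed here, and Scgn on the other, 18543 bases away. Scgn encodes the calcium-binding protein secretagogin and had 7.19 ± 5.39 FPKM in Eif5a SKO and 8.80 ± 8.25 FPKM in wild type (SD, n = 3 each). Within 500 kb of the pair, 15 other histone rows were tested, and all 15 had a log2 fold change above that of the median row. In 8 of the 15 the groups were apart with Eif5a SKO higher, and 2 were called under TMM-type scaling, H4c2 and H4c8. The 4 tested genes of other kinds, Trim38, Slc17a1, Scgn and Carmil1, gave 0 calls (limma, also 0 under TMM-type scaling) and a log2 fold change between -0.51 and 0.73, with 2 above the median row. The median log2 fold change was 1.40 for the 15 histone rows and 0.13 for the other 4, and the ranges overlapped, with Slc17a1, at 0.73, above the lowest histone rows. The difference between these small sets was not tested.

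**Figure D4:**
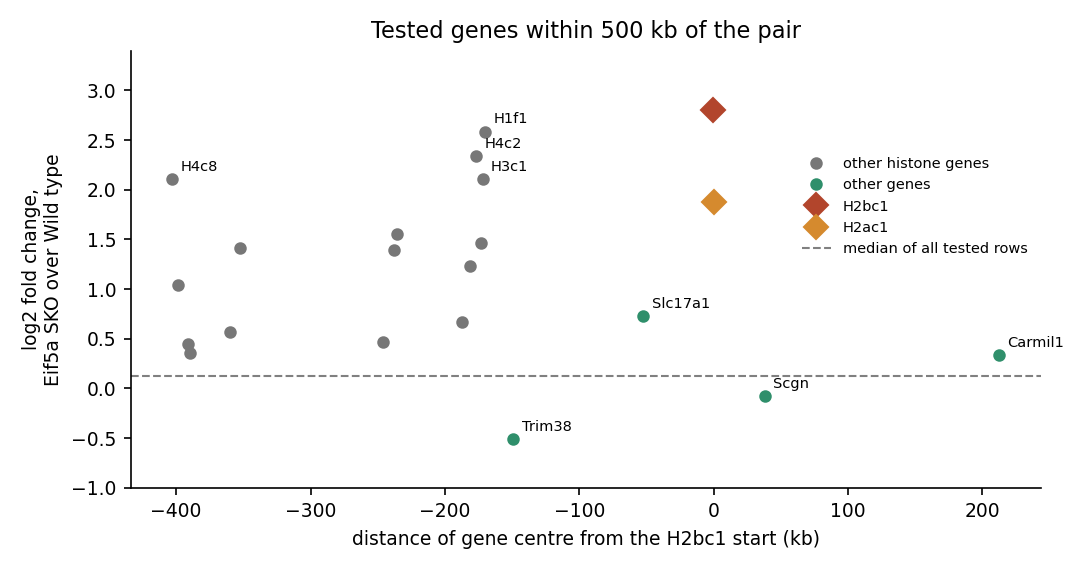
Log2 fold change, Eif5a SKO over wild type, of tested genes within 500 kb of the pair, against the distance of the gene's centre from the H2bc1 start in kb. The 15 other histone genes lie between 0.36 and 2.59, the 4 genes of other kinds between -0.51 and 0.73, and H2bc1 and H2ac1 at 2.80 and 1.87.

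By a fixed rule, the genes most like each member were those with the smallest Euclidean distance between log2(FPKM + 1) values centred over the 6 libraries, among protein-coding genes averaging 5 FPKM or more. For H2bc1 they were H4c2 at 0.764, the Y-linked gene Sly at 0.845, H1f1 at 0.849, the phosphatase gene Dusp21 at 0.855 and the superoxide dismutase gene Sod1 at 0.958. For H2ac1 they were the phospholamban gene Pln at 0.792, H4c8 at 0.925, the malate dehydrogenase gene Mdh2 at 0.930, Akip1, which encodes a partner of protein kinase A, at 0.999, and Tmem247, which encodes a transmembrane protein, at 1.02. Sod1 had 46.2, 113 and 83.9 FPKM in Eif5a SKO and 13.2, 15.0 and 21.2 FPKM in wild type, which has the wild-type libraries in the order of H2bc1 and Eif5a SKO replicate 2, not 3, highest. The members were not each other's nearest gene: at a distance of 1.96, H2ac1 ranked 124 of 4837 from H2bc1, and H2bc1 ranked 556 from H2ac1. With 6 libraries in 2 groups, closeness mostly reflects the size of the difference between genotypes.

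Genes for proteins that carry, process or remove these histones did not pass the test, but few rows of any kind did. Of all tested rows, 0.128% were called unscaled and 1.02% with TMM-type scaling. In lists of 5 to 16 genes, 0 calls therefore say little. Of 15 tested H2A-H2B chaperone and import genes 0 were called in either direction (limma, 1 higher at an unadjusted p under 0.05, 0 under TMM-type scaling). Their median log2 fold change was 0.30. Npm1, the chaperone nucleophosmin, had 82.9 ± 32.6 FPKM in Eif5a SKO and 41.3 ± 14.2 FPKM in wild type. Nasp, which is on that list but is known as a chaperone of H3 and of linker histones, had 238 ± 83.8 FPKM in Eif5a SKO and 398 ± 120 FPKM in wild type (SD, n = 3 each). Under TMM-type scaling limma gave Npm1, higher, an unadjusted p of 0.0152 and Nasp, lower, one of 0.00436. Their adjusted p was 0.191 and 0.114. Histone pre-mRNA processing genes, 16 tested, gave 0 calls (limma, 1 higher and 1 lower at an unadjusted p under 0.05, 0 under TMM-type scaling). Their median was -0.14. Slbp, which binds the stem-loop that ends most histone mRNAs, had 36.6 ± 12.0 FPKM in Eif5a SKO and 29.1 ± 11.8 FPKM in wild type. Genes of H2B ubiquitination and histone removal, 10 tested, gave 0 calls (limma, 2 higher at an unadjusted p under 0.05, 0 under TMM-type scaling). Their median was 0.22. Ube2b, a ubiquitin-conjugating enzyme of spermatid chromatin, had 49.1 ± 11.3 FPKM in Eif5a SKO and 38.6 ± 12.5 FPKM in wild type. The 5 genes listed as transition proteins and protamines gave 0 calls (limma, 0 at an unadjusted p under 0.05, 0 under TMM-type scaling) and a median of -0.33. They did not all lie on one side of 0. Tnp1, a transition protein that takes the place of histones, had 31.7 ± 7.05 FPKM in Eif5a SKO and 44.0 ± 11.8 FPKM in wild type. Prm3, named for the protamine cluster but known as a cytoplasmic acidic protein, had 61.2 ± 23.8 FPKM in Eif5a SKO and 31.2 ± 13.5 FPKM in wild type (SD, n = 3 each). Under TMM-type scaling limma gave Tnp1, lower, an unadjusted p of 0.0354 and Prm3, higher, one of 0.0181. Their adjusted p was 0.278 and 0.207.

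The testis histones are also made by earlier germ cells, so markers of other cells are given beside these values. The 22 meiotic spermatocyte markers summed to 321, 622 and 462 FPKM in Eif5a SKO and 297, 403 and 592 FPKM in wild type. The genotypes overlap, and 10 of 19 tested markers lay above the median row, with a median log2 fold change of 0.18. They gave 0 calls (limma, 1 higher and 1 lower at an unadjusted p under 0.05, 0 under TMM-type scaling). Over all 15578 tested rows 1269 were higher and 441 lower at that p, and 0.128% were called. The 13 DNA replication genes summed to 119 to 170 FPKM in Eif5a SKO and 125 to 191 FPKM in wild type, which overlap, and gave 0 calls (limma, 0 at an unadjusted p under 0.05, 0 under TMM-type scaling). The 10 spermatogonia markers were low in every library, at 20.0 to 27.97 FPKM in Eif5a SKO and 16.4 to 19.1 FPKM in wild type, and these sums did not overlap. The 12 round spermatid markers summed to 1187, 2409 and 1687 FPKM in Eif5a SKO and 828, 1095 and 1541 FPKM in wild type. This was the highest sum of the marker lists used here in both genotypes. Sums over different genes do not measure cell content, so the order does not test the labelled cell type. These markers gave 0 calls (limma, 4 higher at an unadjusted p under 0.05, 0 under TMM-type scaling). Their median log2 fold change was 0.64, with 9 of 12 above the median row and the groups apart with Eif5a SKO higher in 4. Acrv1, which encodes an acrosomal protein, had 628 ± 236 FPKM in Eif5a SKO and 403 ± 128 FPKM in wild type (SD, n = 3 each).

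Markers of somatic testis cells were set beside the pair in the same way. Of 12 Sertoli cell markers on the list, 6 had a row in the table used here, of 10 Leydig cell markers 7, of 14 peritubular, vascular and blood markers 10, and of 13 spermatogonia markers 10. The 6 Sertoli cell markers, of the cells that nurse the germ line, summed to 62.2, 62.7 and 84.1 FPKM in Eif5a SKO. In wild type they summed to 17.2, 25.6 and 20.4 FPKM. On the deposited values 0 were called (limma, 3 at an unadjusted p under 0.05), and 1, Clu, rose under TMM-type scaling (limma adjusted p = 0.0410). Most of the Eif5a SKO sum lay on 2 markers. Clu had 27.7 ± 3.69 FPKM in Eif5a SKO and 5.57 ± 2.14 FPKM in wild type. Ctsl had 27.95 ± 7.71 FPKM in Eif5a SKO and 7.44 ± 2.99 FPKM in wild type (SD, n = 3 each). Only 4 of the 6 markers lay above the median row, and the groups were apart with Eif5a SKO higher in 3. The 7 Leydig cell markers, of the cells that make testosterone, summed to 76.1, 61.2 and 118 FPKM in Eif5a SKO and 18.1, 13.6 and 18.6 FPKM in wild type, with 5 at an unadjusted p under 0.05 and 0 called (limma, also 0 under TMM-type scaling). Of 10 peritubular, vascular and blood markers, Dcn rose with the deposited values (log2 fold change 2.24, limma adjusted p = 0.0470), and Acta2 joined it under TMM-type scaling. That list went both ways, with 4 markers higher and 4 lower in Eif5a SKO at an unadjusted p under 0.05 (limma) and a median log2 fold change of -0.01. Over all 15578 tested rows 1269 were higher and 441 lower at that p. The marker with the highest mean over the 6 libraries, the haemoglobin gene Hbb-bs, had 9.38 ± 5.81 FPKM in Eif5a SKO and 27.5 ± 9.53 FPKM in wild type. Hba-a2, another haemoglobin gene, had 7.84 ± 3.69 FPKM in Eif5a SKO and 21.3 ± 10.6 FPKM in wild type (SD, n = 3 each). The sum of the list was 50.0 to 70.8 FPKM in Eif5a SKO and 58.03 to 117 FPKM in wild type, which overlap. Of the markers with a row, none was at 0 in every library. The part of somatic cells or spermatogonia in the levels of H2bc1 and H2ac1 was not tested.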

How the data were processed

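Per the labels' protocols, round spermatid lysates were made with cycloheximide and treated with RNase I, and the protected RNA of ribosomes collected through sucrose was sequenced. The authors deposited a single table of FPKM by gene symbol and library. Per the submitters' processing notes, the tools included STAR, Bowtie2, Cufflinks and cutadapt and the genome was mm10, without order. How reads that map to several genes were handled is not given, nor is the annotation. The series' design text, which concerns chromatin accessibility, speaks of 3 sorted mice a group. Whether these libraries are of separate mice is not stated, so the spread behind each p-value may be technical.

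Rows averaging 1 FPKM or more over 6 libraries were tested on log2(FPKM + 1), which understates changes of low genes. The comparison of Eif5a SKO with wild type used limma 3.58.1 (R 4.3.3, moderated with an intensity trend, both directions), and p-values were adjusted by Benjamini-Hochberg over every tested row, with 0.05 as the threshold. The TMM-type factors, with 0.3 of ratios and 0.05 of levels trimmed from either side, ran from 0.812 to 1.31. Fragment numbers are FPKM times RefSeq gene length, divided by the commonest step in olfactory receptor genes of 800 to 1100 bases after correction for relative depth. The fit was also run on simulated data, with each value drawn on its own and no shift shared by a whole library. That run cannot show how the fit behaves with the scale differences between these libraries. Both members matched the RefSeq tables by symbol. The pair and the gene lists were chosen with earlier results of these data known. Named genes are the pair, list members past the threshold (at most 4 a list) or with the 2 highest means, the 5 nearest profiles of each member and the adjacent genes. Of these, only those that a result turns on are printed. A comparison of protein sequences was not run. Alternatives covered the pseudocount, the filter, the scaling, the trend, a replicate block and each library left out.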

Additional observations from a re-analysis of the deposited data

How the results depend on the processing

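H2bc1 and H2ac1 stayed higher in Eif5a SKO in all 21 alternatives. The log2 fold change of H2bc1 ran from 2.53 to 2.87 over the other pseudocounts, filters, scalings and models, from 2.56 to 3.18 with 1 library left out, and from 2.40 to 2.86 with TMM-type scaling and 1 library left out. The same ranges for H2ac1 were 1.28 to 2.12, 1.54 to 2.23 and 1.26 to 1.99. The H2bc1 share of H2B density differed by 26.6 to 29.0 percentage points and the H2ac1 share of H2A density by 3.14 to 5.88 with 1 library left out. The difference in the H2bc1 over H2ac1 ratio ran from -0.50 to 4.60, and the cause was not tested. Sums of the other genes differed by 42.2 to 100.5 FPKM for H2B and 49.4 to 100.6 FPKM for H2A.

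Counts of calls depended on the setting. Against 20 rows in the table and 5 list members, a pseudocount of 5 gave 4 and 0, no filter gave 5 and 0, a mean of at least 5 FPKM gave 86 and 14, TMM-type scaling gave 159 and 15, quantile normalization gave 446 and 22, and the replicate block gave 5 and 0, or 4 and 0 with TMM-type scaling. Leaving out 1 library gave 4 to 31 rows and 0 to 5 list members, with 0 list members without Eif5a SKO replicate 3 or any wild-type replicate. With TMM-type scaling, an alternative chosen after seeing the data, it gave 10, 23 and 13 rows without Eif5a SKO replicate 1, 2 or 3, and 28, 8 and 4 without wild-type replicate 1, 2 or 3, with 4 list members without wild-type replicate 1 and 0 otherwise. The block with TMM-type scaling was also chosen after seeing the data. Deviations of same-numbered samples from their group means had correlations of 0.0926, 0.0002 and 0.0243. These values do not settle whether the samples were paired. Of the calls, 17 of 20 were higher in Eif5a SKO, against 119 of 159 with TMM-type scaling and 248 of 446 with quantile normalization. The calls of H2al1c held in 8 of 21 alternatives, of H4c2 in 4, and of H4c8, Clu, Acta2 and Dcn in 3 each. Relative to the median row, the median log2 fold change of the H3, H4 and H1 genes was 0.75 with a pseudocount of 5 and 1.90 over rows averaging 5 FPKM or more. That of the other testis histone genes ran from 0.83 with a pseudocount of 5 to 1.80 with one of 0.1. That of the replacement H2A variants, -0.13, changed sign to 0.34 without Eif5a SKO replicate 2 and to 0.55 over rows averaging 5 FPKM or more, and the cause was not tested. Depth limits the wild-type values of H2ac1, at about 2.58 to 9.22 fragments in wild type.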
